A study of Mus musculus with 7 samples.

Results

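The α and β forms of the retinoic acid receptor (RARα, RARβ) and their partner, the retinoid X receptor α (RXRα), were mapped in mouse liver, and their peaks are described here at 10 genes of mitochondrial fatty acid oxidation. The genes were Cpt1a, Cpt2, Slc25a20, Acadm, Acadl, Acadvl, Acads, Hadha, Hadhb and Etfdh, out of 21532 protein-coding genes with a known start. They were chosen by their role in the pathway, and a peak belonged to a gene when its midpoint lay inside the gene span or within 50 kb of it. The mapping used ChIP-seq, sequencing of the DNA that an antibody against the receptor pulls down from fixed chromatin, on livers of male C57BL/6 wild type mice aged 3 months, fed either a normal diet (control) or a diet with retinoic acid (RA), the ligand of the RARs. By the labels the diet lasted 1 day, whereas the methods of the study give a longer treatment without naming the assay, so the duration is not settled. All groups shared strain, sex, age and tissue. Each receptor and diet had 1 library of whole liver, and whether livers were pooled is not given in the sources used here. All differences below therefore describe these 6 libraries and no test between them was possible.

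RARα had lists of 35521 peaks (control) and 44296 (RA), RARβ of 14968 and 29467, and RXRα of 61128 and 59624. Each peak carries a score of the peak caller, which rises as the p-value of the peak falls, and no list held a score under 50. A site without a peak was therefore not called, which is not the same as unbound. Scores were not normalized between libraries and the read totals are not in the lists, so each peak was placed by the percent of peaks of its own list that scored higher. A low percent is a high rank.

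Fatty acid oxidation in mitochondria begins with the carnitine shuttle, which carries long-chain acyl groups across the mitochondrial membranes. Inside, acyl-CoA dehydrogenases of different chain length preference take the first oxidation step, the trifunctional protein does the remaining steps for long chains, and the electrons pass through the electron transfer flavoprotein to the respiratory chain. In liver the pathway is most active in fasting, and many of its genes are known targets of peroxisome proliferator-activated receptor α (PPARα). PPARα, like the RARs, binds DNA as a heterodimer with RXRα, at repeats of the core element AGGTCA, which PPARα uses with a spacer of 1 base (DR1) and the RARs mostly with 5 or 2 bases (DR5, DR2).

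All 10 genes had called receptor peaks close to their starts, and at most of them RXRα ranked highest. The highest RXRα peak within 10 kb of the start was among the top 10% of its list at 9 of the 10 genes under the control diet and at 8 under RA, against 8.97% and 8.38% of all genes. Among genes that had any RXRα peak within 10 kb, the shares were 14.5% and 13.5%. RARα reached the top 10% of its list at 2 and 4 genes (17.0% and 17.2% of all genes, 27.2% and 27.0% of those with a RARα peak), which is near the background. RARβ did so at 0 and 0 (7.09% and 11.0% of all genes, 15.9% and 19.9% of those with a RARβ peak). Hadha and Hadhb share 1 RXRα peak, and counting them once gives 8 and 7 genes for RXRα. They also share the RARα peak at their start, and counting them once gives 2 and 3 genes for RARα. The measure of the top 10% was itself chosen after values were seen, so these counts are a description and not a test. With the top 5%, a limit also set after values were seen, the RXRα counts were 3 and 5 of 10, against 4.49% and 4.13% of all genes. The genes outside the top 10% were Acads, which codes for the short-chain dehydrogenase, under both diets, and Acadvl under RA. RARα ranked above RXRα at Cpt2 under the control diet, at the shared start of Hadha and Hadhb under RA, and at Acads under the control diet and Acadvl under RA.

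**Figure D1:**
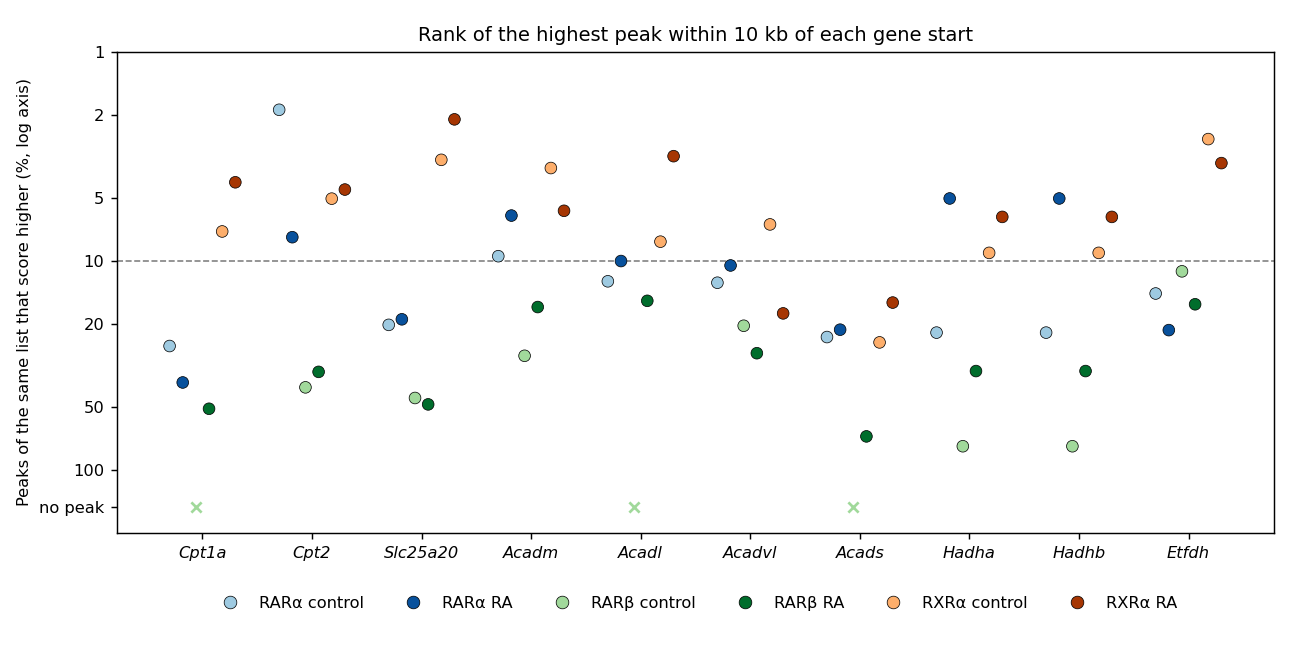
Rank of the highest peak with its midpoint within 10 kb of the start of each gene, as the percent of peaks of the same list that scored higher (log axis, inverted so that high ranks are at the top). Each point is 1 library, a cross marks no peak, and the dashed line is at 10%; most RXRα points lie above the line, most RARα points and all RARβ points below it.

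Sequences around the starts are shown because peaks of these lists lie over them. They run from 250 bases before to 50 bases after the first base of the gene, are from RefSeq (GRCm38.p6) in the direction of transcription, and were found for all 10 genes. The first 4 are the genes with a match to the core element or a related repeat, which is in capitals. The fifth, Hadha, has no match and is the start region that it shares with Hadhb.
Slc25a20 (chr9:108661886-108662185, plus strand): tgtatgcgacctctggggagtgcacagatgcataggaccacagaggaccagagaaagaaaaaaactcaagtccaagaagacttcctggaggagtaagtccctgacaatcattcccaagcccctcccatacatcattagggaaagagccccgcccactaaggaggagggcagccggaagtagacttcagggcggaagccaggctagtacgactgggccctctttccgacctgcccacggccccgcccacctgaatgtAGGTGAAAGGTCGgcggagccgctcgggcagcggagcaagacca
Cpt1a (chr19:3323051-3323350, plus strand): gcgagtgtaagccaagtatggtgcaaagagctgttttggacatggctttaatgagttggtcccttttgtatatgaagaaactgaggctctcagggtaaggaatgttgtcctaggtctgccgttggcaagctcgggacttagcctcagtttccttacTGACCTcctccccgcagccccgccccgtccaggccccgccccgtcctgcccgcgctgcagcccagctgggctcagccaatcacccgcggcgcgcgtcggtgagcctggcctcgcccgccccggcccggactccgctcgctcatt
Acadm (chr3:153944594-153944893, minus strand): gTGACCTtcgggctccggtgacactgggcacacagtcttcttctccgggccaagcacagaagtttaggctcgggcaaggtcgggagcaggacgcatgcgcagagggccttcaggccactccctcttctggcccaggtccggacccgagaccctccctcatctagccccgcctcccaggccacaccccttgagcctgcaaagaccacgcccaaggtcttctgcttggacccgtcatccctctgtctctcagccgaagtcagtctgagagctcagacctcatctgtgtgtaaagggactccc
Acadvl (chr11:70015379-70015678, minus strand): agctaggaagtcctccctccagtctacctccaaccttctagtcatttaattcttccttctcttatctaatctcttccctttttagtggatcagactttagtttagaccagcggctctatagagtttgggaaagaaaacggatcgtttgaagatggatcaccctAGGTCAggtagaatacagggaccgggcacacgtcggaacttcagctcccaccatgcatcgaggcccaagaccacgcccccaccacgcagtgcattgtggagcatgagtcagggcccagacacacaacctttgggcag
Hadha (chr5:30154931-30155230, minus strand): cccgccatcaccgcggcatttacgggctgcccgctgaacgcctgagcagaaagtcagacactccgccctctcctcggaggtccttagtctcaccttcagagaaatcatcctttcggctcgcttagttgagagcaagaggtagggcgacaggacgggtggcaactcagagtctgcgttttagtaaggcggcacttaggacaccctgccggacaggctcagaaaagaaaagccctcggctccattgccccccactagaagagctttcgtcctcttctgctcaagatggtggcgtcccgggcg

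The core element AGGTCA, searched on both strands, was found in 3 of the 10 start regions, those of Cpt1a, Acadm and Acadvl, against 16.3% of the 32851 start regions of mouse genes. It begins 94 bases before the start of Cpt1a and 249 bases before that of Acadm, both on the opposite strand (TGACCT), and 87 bases before the start of Acadvl on the strand of the gene. No DR1 (AGGTCANAGGTCA, N being any base), and no DR2 or DR5 with 2 or 5 such bases between the elements, was found in any of the 10 on either strand, exact or with 1 mismatch in all. The shares of all start regions with such matches were 0.554% for DR1, 0.253% for DR2 and 0.262% for DR5. With 2 mismatches allowed, a setting chosen after these values were seen, Slc25a20 had a DR1, AGGTGAAAGGTCG, beginning 7 bases into the gene, as had 3.86% of all start regions. DR2 and DR5 with 2 mismatches were found in none of the 10 and in 2.99% and 2.79% of all. The GC content of the 10 start regions had a median of 59.7%, against 52.7% over all, and their CpG count a median of 17 against 7. These matches describe letters in a window of 300 bases and say nothing of sites outside it.

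Within 10 kb of the start, RARα peaks were called at all 10 genes under both diets, where 62.3% and 63.7% of all genes had one. RXRα peaks were also called at all 10 under both diets, against 61.8% and 62.3% of all genes. RARβ peaks were called at 7 genes under the control diet and at 10 under RA, against 44.5% and 55.2%. With a minimum score of 100, RARβ peaks were left at 3 genes under the control diet and at 8 under RA. The median score of the whole RARβ control list was 76.3, and no share of all genes at this minimum is at hand. The 3 genes with a RARβ peak only under RA were Cpt1a, Acadl and Acads, and 13.1% of all genes changed in this way. The RARβ list was longer under RA (29467 peaks) than under the control diet (14968). With lists cut to 14968 peaks, RARβ was called at 7 of the 10 genes under the control diet and at 8 under RA. In the full lists, 3.85% of all genes gained a RARα peak under RA and 4.09% an RXRα peak. The 10 genes all had both under the control diet already, so no gene of the 10 could gain one. None went from a peak to no peak in any receptor, against 2.43% of all genes for RARα, 2.47% for RARβ and 3.62% for RXRα. With 7 of 10 genes called in all 6 lists, the share over all genes was 38.8%.

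Within 1 kb of the start RARβ and RXRα were called at fewer of the genes than RARα. RARα kept a peak at all 10 genes under each diet (49.1% and 49.1% of all genes). RARβ had one at 7 genes under the control diet and at 9 under RA (35.2% and 42.9%). RXRα had one at 7 and 9 genes (42.5% and 44.4%), and missed Cpt1a in both and Hadha and Hadhb under the control diet. Called within 1 kb in all 6 lists were Cpt2, Slc25a20, Acadm, Acadvl and Etfdh, 5 of 10 against 26.5% of all genes.

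The distance between the highest RARα and the highest RXRα peak within 10 kb separated the genes where both lay at the start from those where the RXRα peak lay inside Cpt1a, Cpt2 or Hadha. The peak in Hadha, upstream of Hadhb, is also the highest of Hadhb. The distance was over 1 kb at Cpt1a, Cpt2, Hadha and Hadhb, 4 of 10 genes under each diet, against 43.3% of the 11888 genes with both peaks under the control diet and 40.3% of 12235 under RA. At the other 6 genes it was at most 0.302 kb under the control diet and 0.322 kb under RA. The share among the 10 genes was thus near that of all genes.

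**Figure D2:**
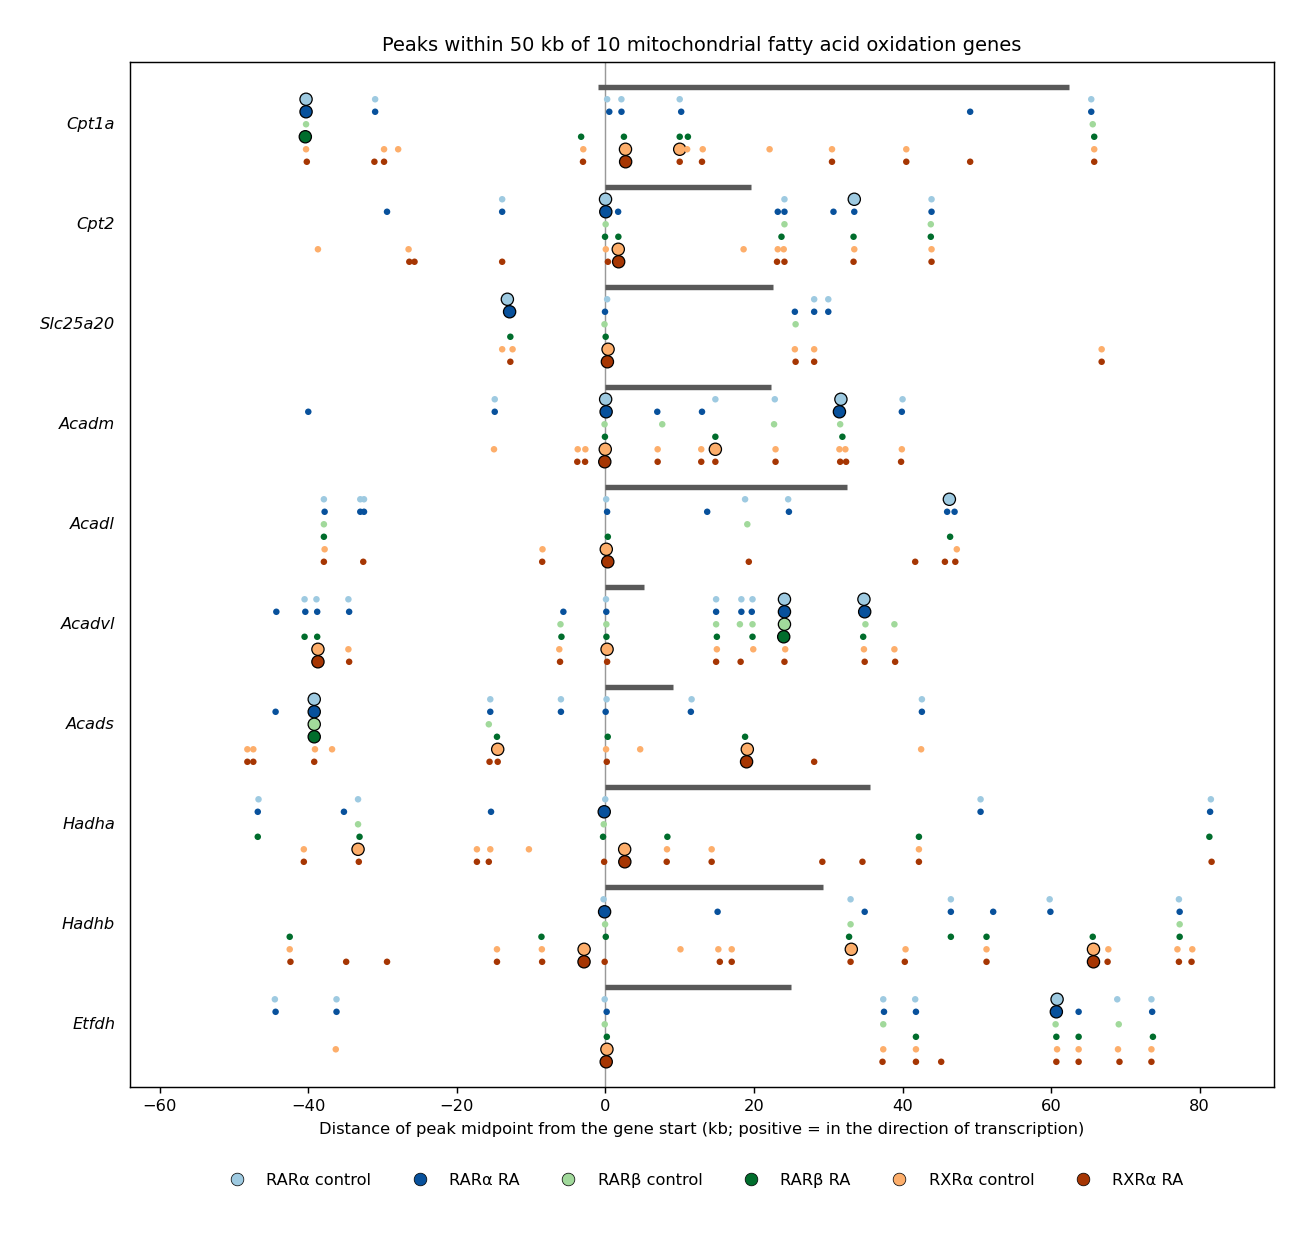
Peaks of the 6 lists in the windows of the 10 genes, by the distance of the midpoint from the gene start (kb, positive in the direction of transcription). The grey bar is the gene span, each row of points is 1 library in the order of the legend from top to bottom, and large outlined points are peaks in the top 10% of their list; such RXRα points lie at or just inside the start of most genes.

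Cpt1a codes for the carnitine palmitoyltransferase of the outer mitochondrial membrane, which sets the rate of entry into oxidation (chromosome 19, 3322326 to 3385735, plus strand). Its start was covered by a RARα peak in both diets, with 25.5% of the RARα list scoring higher under the control diet and 38.1% under RA. No RXRα or RARβ peak had its midpoint within 1 kb. The strongest RXRα peak lay 2.70 kb inside the gene under the control diet, at chr19:3324850-3327146, and 2.72 kb inside under RA, with 7.22% and 4.20% of the list scoring higher. That region held a RARβ peak under RA only (50.9% higher), and RARα peaks of low rank under the control diet (86.5%) and middle rank under RA (49.9%). A second strong RXRα region lay 10.5 kb inside the gene, where 7.38% of the list scored higher under the control diet and 17.2% under RA. Of the 14 merged regions in the Cpt1a window, 6 were called for RXRα alone and 3 were called for RARβ under RA only. The gene was thus the one in which RARα sat at the start without a called RXRα peak over it in either diet.

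Cpt2 codes for the carnitine palmitoyltransferase of the inner membrane, which turns acylcarnitine back into acyl-CoA (chromosome 4, 107903982 to 107923589, minus strand). RARα had its highest rank within 10 kb of any of the 10 starts here, with 1.89% of the control list scoring higher than the peak over the start, and 7.69% of the list under RA. The same start was called for RXRα at middle rank, with 50.1% and 57.9% of the list scoring higher. RARβ was called there too, with 40.2% of its list higher under the control diet and 35.5% under RA. RXRα was instead highest inside the gene, 1.73 kb from the start under the control diet and 1.78 kb under RA, with 5.03% and 4.55% higher. At this inner region RARα (71.9%) and RARβ (33.9%) were called under RA and not under the control diet. Both regions were present in both diets, so the order of RARα at the start and RXRα inside held in each.

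Slc25a20 codes for the carnitine-acylcarnitine translocase of the inner membrane (chromosome 9, 108662136 to 108684642, plus strand). All 6 lists had a peak over its start, which holds the DR1 with mismatches shown above. The RXRα peak was at chr9:108661721-108663266 under the control diet, and 3.28% of the list scored higher, against 2.10% under RA. The latter was the highest rank of RXRα within 10 kb of any of the 10 starts. The RARα peaks ranked lower, with 20.2% and 19.0% of the list above them, and RARβ near the middle, with 45.2% and 48.5%. Slc25a20 had 6 merged regions, the fewest of the 10 windows, and only the one at the start lay in the gene span.

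The acyl-CoA dehydrogenase genes are named for the chain lengths of their substrates. Acadm codes for the medium-chain enzyme (chromosome 3, 153922353 to 153944643, minus strand), and all 6 lists had a peak over its start. RXRα ranked highest there (3.59% of the list higher under the control diet, 5.75% under RA), followed by RARα (9.48% and 6.06%) and RARβ (28.4% and 16.6%). Acadm was the only gene with both RARα and RXRα in the top 10% at the start itself in both diets. A further RXRα region lay 14.8 kb inside the gene, with 4.77% of the list higher under the control diet and 11.5% under RA.

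Acadl codes for the long-chain enzyme (chromosome 1, 66830839 to 66863309, minus strand). At its start RXRα ranked at 8.08% in the control list and 3.15% in the RA list, while RARα ranked at 12.5% and, under RA, just outside the top 10%. A RARβ peak was called at the start under RA only, with 15.5% of its list scoring higher. In the control list the only RARβ peaks of this window lay 19.1 kb inside the gene and 37.9 kb upstream. The upstream region was called in all 6 lists, with RXRα at 12.8% and 23.3% of its list.

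Acadvl codes for the very-long-chain enzyme (chromosome 11, 70010183 to 70015428, minus strand), and its window held 8 other gene starts, the most of the 10. Its start region was called in each of the 6 lists. RXRα ranked at 6.68% under the control diet and 17.8% under RA, RARα at 12.7% and 10.5%, and RARβ at 86.2% and 28.1%. The RARβ control peak at this start, with a score of 54.3, was close to the lowest score listed. The highest RARβ peaks within 10 kb lay elsewhere, about 6 kb upstream, with 20.4% and 27.6% of the list higher. They were nearer to the start of a neighbour, 2503 bp away under the control diet and 2633 bp under RA.

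Acads codes for the short-chain enzyme (chromosome 5, 115110299 to 115119346, minus strand), and its start had no peak in the top 10% of any list. RXRα ranked at 24.5% in the control list and 15.8% in the RA list, while RARα ranked at 23.1% and 21.3%. RARβ was called under RA only, at 69.0%. The strongest RXRα peak of the window lay 19.1 kb from the start, beyond the gene end, with 1.25% of the list higher under the control diet and 2.23% under RA. The nearest gene start, that of a neighbour, was 9951 bp away. Another RXRα region, 14.5 kb upstream, ranked at 6.23% under the control diet and 36.6% under RA.

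Hadha and Hadhb code for the α and β subunits of the trifunctional protein. Their starts lie 273 bp apart on opposite strands of chromosome 5 (30119423 to 30154980, minus strand, and 30155253 to 30184593, plus strand), so peaks over the shared start region cannot be assigned to either gene. RARα was called there in both diets, with 22.0% of the list higher under the control diet and 5.02% under RA. RARβ was called in both, at 76.9% and 33.6%. RXRα had no peak there under the control diet and one of low rank under RA, with 85.4% of its list scoring higher. The strongest RXRα peak within 10 kb lay inside Hadha, 2.59 kb from its start under the control diet and 2.61 kb under RA, with 9.14% and 6.15% higher. Neither RAR was called at that region, chr5:30151849-30152921, in any list. As at Cpt1a and Cpt2, RARα thus lay over the start of the pair and the highest RXRα peak within 10 kb lay over 1 kb away. At the pair that RXRα peak ranked above RARα under the control diet and below it under RA.

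Other strong RXRα regions of the Hadhb window lay beyond its gene end. One at 33.0 kb from the Hadhb start ranked at 2.47% under the control diet and 15.3% under RA, with RARβ in both diets (96.5% and 40.1%) and RARα under the control diet only (90.9%). Another at 65.7 kb ranked at 9.22% and 6.86%, with RARβ under RA only (78.1%). The Hadhb window had 21 merged regions, the most of the 10, of which 9 were RXRα alone and 5 were called for RARβ under RA only.

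Etfdh codes for the oxidoreductase that passes electrons from the electron transfer flavoprotein to ubiquinone (chromosome 3, 79603788 to 79628767, minus strand). All 6 lists had a peak over its start, which lies 312 bp from that of 4930579G24Rik. RXRα ranked at 2.61% under the control diet, its highest rank of that diet within 10 kb of the 10 starts, and at 3.40% under RA. RARα ranked at 14.3% and 21.4%, and RARβ at 11.2% and 16.1%. The RARβ control peak here was the one of highest rank within 10 kb of any of the 10 starts, and it stayed outside the top 10%.

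Over the whole windows, which together cover 1.16 Mb, RARα had 58 peaks under the control diet and 71 under RA. RARβ had 30 and 45, and RXRα had 82 and 85. The median per gene was 6 and 7 for RARα, 2.5 and 5 for RARβ, and 9 and 9 for RXRα. Over all genes these medians were 4 and 4, 1 and 3, and 5 and 5, with a median window of 117 kb against 124 kb for the 10 genes. Higher counts than the median of all genes were found at 9 and 10 of the 10 genes for RARα, at 10 and 7 for RARβ, and at 9 and 9 for RXRα. With lists cut to the 14968 peaks of highest score, the change under RA was 1 peak more for RARα and 2 peaks fewer for RARβ and for RXRα. The rise in RARβ and RXRα peaks thus turned under this cut. For RXRα the full list was the shorter one under RA (59624 peaks against 61128).

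**Figure D3:**
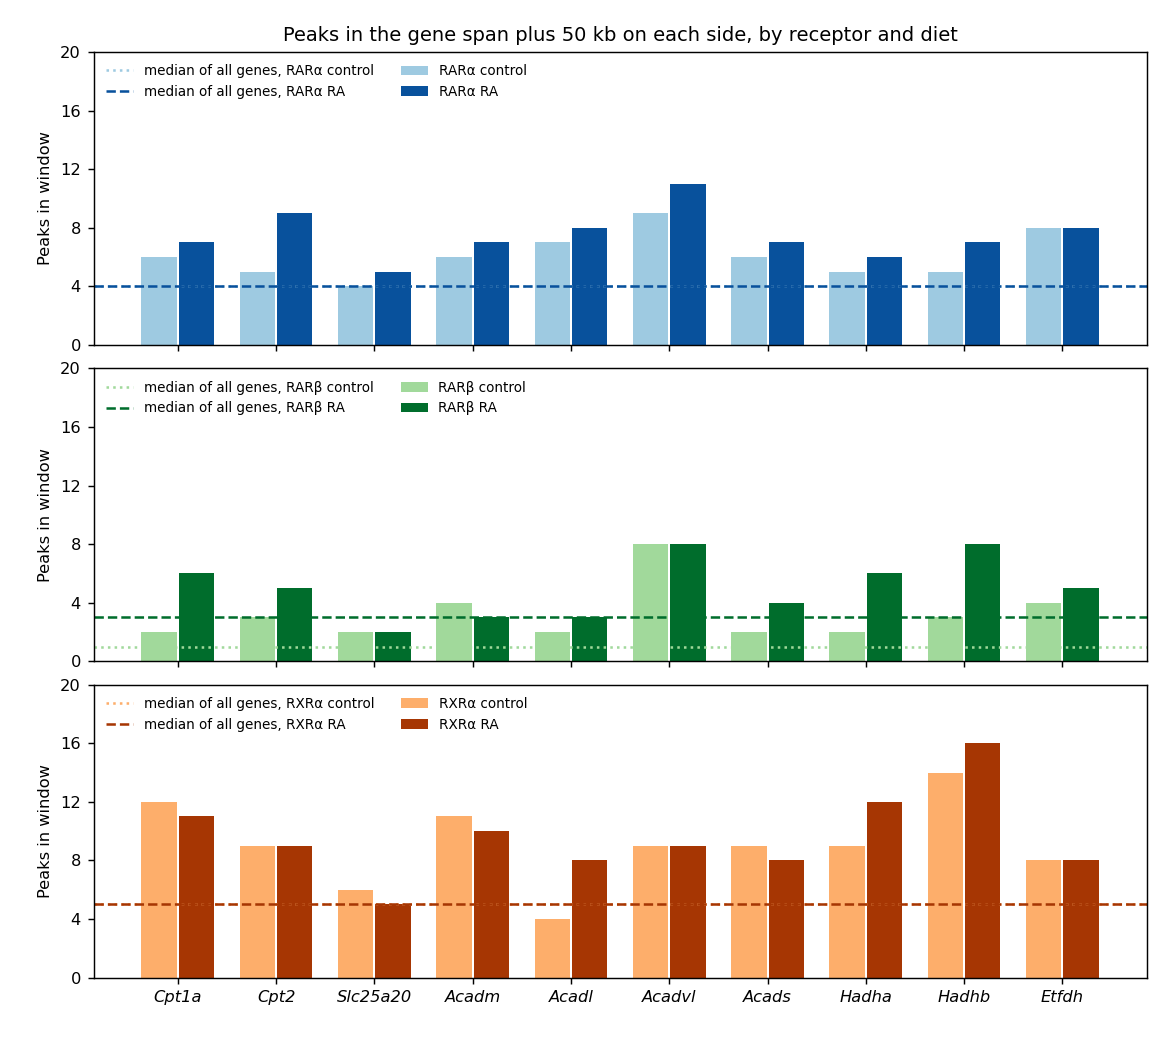
Number of peaks with their midpoint in the gene span or within 50 kb, for each gene under the control diet (light bars) and RA (dark bars). Lines give the median over all 21532 genes, dotted for control and dashed for RA, and overlie each other for RARα at 4 and RXRα at 5; most bars stand above the lines.

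Between 29.6% and 35.6% of the window peaks of a list had one of the 10 genes as their nearest start. The highest peak of the window was nearest to the gene's own start at 7 of 10 genes for RXRα under each diet, against 32.8% and 33.2% of all genes. For RARα it was so at 2 and 3 of 10 (33.3% and 33.8% of all genes), and for RARβ at 3 and 3 (26.1% and 29.9%). These shares are over all 21532 genes, with or without a peak in the window, and the measure was chosen after values were seen. Where it was not the own start, the highest RAR peak often lay within 1 kb of the start of a neighbour, such as Ighmbp2 for Cpt1a, Arih2 for Slc25a20, Rabggtb for Acadm, Gabarap for Acadvl, Mlec for Acads and Fnip2 for Etfdh. At the start of Mlec, for instance, 1.60% and 2.68% of the RARα lists scored higher in control and RA, as did 7.0% and 6.22% of the RARβ lists. At the start of Rabggtb, RARα ranked at 4.17% and 0.917%, the latter the only peak of the windows that was among the top 1% as the highest of a gene.

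Peaks of a receptor were compared between diets by an overlap of at least 25% of the width of each peak. Of the RARα control peaks in the windows, 91.4% (Wilson 95% interval 81.4 to 96.3) were shared with the RA list, against 84.2% of the whole list. For RARβ the share was 70.0% (52.1 to 83.3) against 75.8%, and for RXRα 84.1% (74.7 to 90.5) against 78.7%. Seen from the RA lists, 76.1% of RARα, 46.7% (32.9 to 60.9) of RARβ and 81.2% of RXRα peaks were shared, against 68.4%, 38.2% and 80.3% of the whole lists. Each whole-list value lay within the interval of its window share. The intervals cover counting error only.

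With RXRα of the same diet, 67.2% (54.4 to 77.9) of the RARα window peaks were shared under the control diet and 66.2% (54.6 to 76.1) under RA, against 61.1% and 61.7% of the whole lists. For RARβ the shares were 83.3% (66.4 to 92.7) and 91.1% (79.3 to 96.5), against 77.8% and 89.9%. The RARβ share was above the RARα share in both diets, and the intervals overlapped under the control diet and were apart under RA. With all lists cut to the same length, the RXRα lists lost the most peaks, and the shares were 22.6% and 25% for RARα and 23.3% and 46.4% for RARβ.

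Merging the peaks of all lists gave 112 regions in the windows. All 6 lists called 17 of them, 15.2% (9.70 to 23.0) against 9.75% of all 87802 regions, and lists of equal length left 4. RXRα alone was called at 29 regions, 25.9% (18.7 to 34.7) against 36.3%, the latter above the interval, and RARα alone at 17, 15.2% against 16.4%. The comparison is with regions of the whole lists and not with windows of other genes, so it is not matched for distance to a gene start. RARβ alone was called at a single region, 7.65 kb inside Acadm, under the control diet and with a score of 52.7. Of the 9 regions within 1 kb of one of the 10 starts, 5 were called in all 6 lists, RARα was called at all 9, and none was RXRα alone. At the starts of other genes in these windows the counts were alike, with 10 of 23 regions called in all 6 lists, 22 called for RARα and 0 for RXRα alone. RARβ was called under RA and not under the control diet at 23 of its 53 regions, 43.4% against 54.3% over all regions. It was called under the control diet only at 9, 17.0% against 9.90%. Of the 23 regions, 20 had an RXRα peak already under the control diet, 87.0% against 86.7% over all regions. RARα was called under the control diet at 14 of them, 60.9% against 46.4%.

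**Figure D4:**
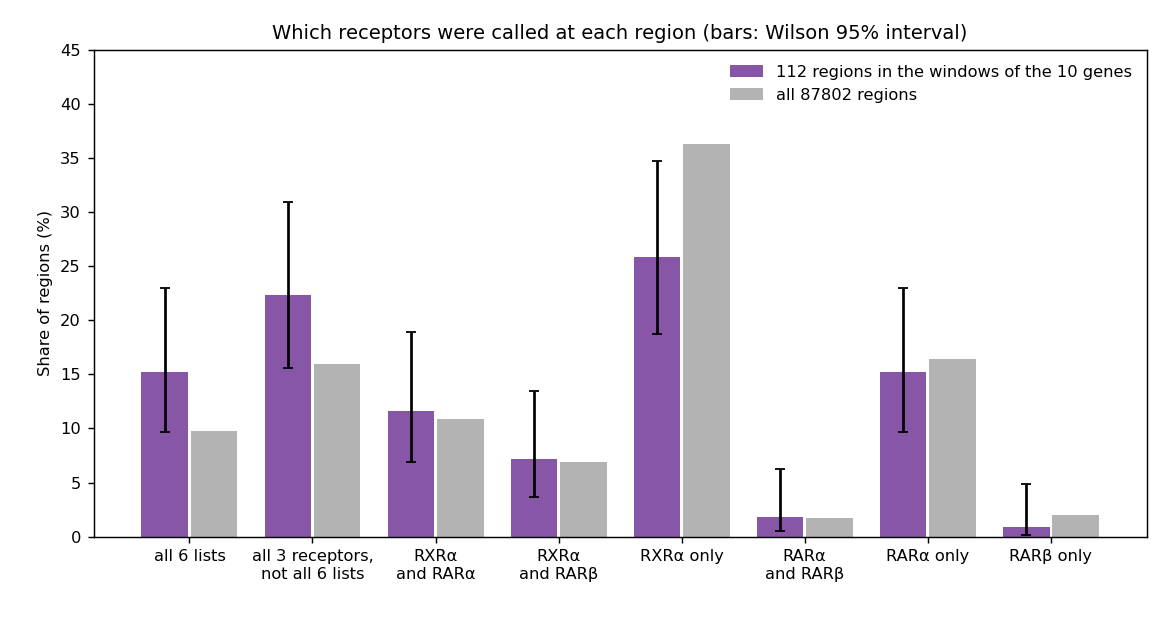
Share of merged regions by the receptors called there under either diet, for the 112 regions in the windows (purple, with Wilson 95% intervals for counting error) and for all 87802 regions (grey). Regions called in all 6 lists made up 15.2% against 9.75%, and regions of RXRα alone 25.9% against 36.3%. The grey bars are not limited to windows of genes.

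A wider list held 18 genes of the same pathway and its control, with none of the 10. Within 10 kb it had RARα peaks at 17 and 18 genes in the control and the RA list (62.3% and 63.7% of all genes). RARβ peaks were called at 15 and 17 (44.5% and 55.2%), and RXRα peaks at 18 and 18 (61.8% and 62.3%). The genes called in fewer than 6 lists were Acot2, a mitochondrial acyl-CoA thioesterase, with 3 lists, and Cpt1b, the muscle form of Cpt1a, and Acad11, another acyl-CoA dehydrogenase, with 5 lists each. RXRα was in the top 10% of its list at 10 of the 18 genes under each diet, against 8.97% and 8.38% of all genes. RARα was so at 11 and 12, against 17.0% and 17.2%. At Acad11, 3.18% of the RXRα list scored higher under the control diet and 0.988% under RA, at peaks 7.57 and 7.65 kb downstream of the start. At Ppara, which codes for PPARα itself, RXRα ranked at 1.20% and 0.973%, a few kb upstream of the start, and RARα at 3.88% and 15.6% within 1 kb of it. At Acsl1, which activates long-chain fatty acids to acyl-CoA, RXRα ranked at 4.93% under the control diet 0.316 kb before the start, and at 1.17% under RA 8.84 kb inside.

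For comparison, 12 genes of fatty acid oxidation in peroxisomes had RXRα peaks within 10 kb at 12 under each diet (61.8% and 62.3% of all genes). RARα peaks were called at 11 and 12 (62.3% and 63.7%), and RARβ peaks at 10 and 12 (44.5% and 55.2%). RXRα was in the top 10% at 8 and 9 of these 12 (8.97% and 8.38% of all genes), and RARα at 6 and 7 (17.0% and 17.2%). High RXRα ranks were thus also found in both other lists, in which RARα reached the top 10% at a larger part of the genes than in the 10. These differences between lists were not tested.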

How the data were processed

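ChIP-seq of RARα, RARβ and RXRα was done by the authors on mouse liver under a control diet or a diet with RA, with 1 library per receptor and diet and 1 input library, which is not used here on its own. Single-end reads of 35 bp were aligned to mm10 (GRCm38) with Bowtie 0.12.7 and peaks were called with MACS 1.4.1, as the study's methods state. CASAVA 1.4 is named in the submitters' processing notes. The deposited score of each peak is the caller's own value, 10 times the negative log10 of its p-value, and it was not normalized between libraries. Whether livers or libraries were pooled is not given in the sources used here. The lists were analysed as deposited, since no score was under 50 and the input-fold limit of the study is not in them. Read totals per library were not used here, so the depth behind each list is unknown, and a deeper library can give a longer list.

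Genes were the protein-coding genes of a RefSeq table of GRCm38.p6. Starts and strands came from the RefSeq promoter table for 17491 genes, all 10 of the pathway included, and from the outer end of the span with a GENCODE M1 strand for 4041. Strands were the same in both sources for 16488 of 16538 genes. Exons, introns and coordinates of other builds were not used. A window is the gene span plus 50 kb on each side, and a peak belongs to it by its midpoint. Rank is the percent of peaks of the same list with a higher score. Peaks were called shared at an overlap of at least 25% of both widths, and regions are the union of overlapping peaks over the 6 lists. Wilson 95% intervals cover counting error only. Scripts used Python 3.11.15, pandas 2.3.3 and scipy 1.17.1, and were tested on constructed peaks with known answers.

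The 10 genes, the lists of 18 and 12 genes and the motifs were chosen with earlier results of these data known. The genes named were the 10, of the wider list those called in fewer than 6 lists plus Ppara and Acsl1, and neighbours whose start lies within 1 kb of a described peak. The measure of the top 10%, the distance between RARα and RXRα peaks, the owner of the highest window peak and the motif search with 2 mismatches were chosen after values were seen. Groups came from the labels. With 1 library per group no test was run. Alternatives were another flank, a score of at least 100, lists cut to 14968 peaks, other overlap rules and other limits of rank and distance. No sequence under the peaks beyond the start regions was used here.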

Additional observations from a re-analysis of the deposited data

Results flagged for a closer look

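At 4 genes the window count of at least 1 receptor was higher under RA while that of another was lower. None of these differences was tested, and most are of a single peak. Some are the net of peaks gained and lost in the window. At Cpt1a RARα changed by 1 peak from control to RA, RARβ by 4 and RXRα by -1. At Slc25a20 it was 1 for RARα and -1 for RXRα. At Acadm RARα changed by 1, RARβ by -1 and RXRα by -1, and at Acads RARα by 1, RARβ by 2 and RXRα by -1.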

How the results depend on the processing

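Of 103 alternative values, 57 stayed close to the reported value, 44 moved and 2 turned in direction. With a flank of 10 kb the windows held 24 and 30 RARα peaks under the control diet and RA, 16 and 23 RARβ peaks, and 41 and 43 RXRα peaks, so the change under RA was 6 for RARα and 7 for RARβ, and 9 regions were called in all lists. With 100 kb the RARα count under RA was 108, and the RXRα counts were 125 and 130, with RARα changed by 23 under RA, RARβ by 24 and RXRα by 5. A minimum score of 100 left 36 RARα and 54 RXRα control peaks and 12 and 27 RARβ peaks. At that minimum 7 regions were called in all lists. RARβ peaks within 10 kb were then left at 3 genes under the control diet and 8 under RA, with no share of all genes at hand. Lists of equal length gave 31 and 32 RARα peaks, 28 RARβ peaks under RA, and 25 and 23 RXRα peaks. RARα then changed by 1 under RA, RARβ by -2 and RXRα by -2, and 4 regions were called in all lists. They also lowered the shares with RXRα to 22.6% and 25% for RARα and 23.3% and 46.4% for RARβ, since the RXRα lists lost the most peaks. An overlap of 50% gave 63.3% and 75.6% for RARβ with RXRα. Seen from the RA list, 76.1% of RARα and 46.7% of RARβ peaks were shared between diets.

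The rank and distance limits were varied after seeing the data. In the top 5% of the list lay the highest peaks of 3 and 5 genes for RXRα, and of 1 and 0 genes for RARα. In the top 20% they lay at 5 and 7 genes for RARα, at 1 and 3 for RARβ and at 9 and 10 for RXRα. A share of all genes is at hand only for RXRα in the top 5% (4.49% and 4.13%). The other counts at these 2 limits therefore cannot be set against a background. The 1-kb limit for RARα and RXRα peaks apart gave 4 genes in each diet, with Hadha and Hadhb counted separately. Limits of 500 and 2000 bp moved neither count beyond 1.5 times. A count of Hadha and Hadhb as 1 gene was made only for the top 10%, where it moved no value beyond 1.5 times. The number of reads behind each list limits which peaks could be called, and with 1 library per group no spread between animals is known.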
